A study of Ostreococcus tauri with 84 samples.

Results

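Cultures of the marine picoalga Ostreococcus tauri, strain RCC4221, were moved into constant darkness (DD) after growth under long or short days. Long days (LD) had 16 h light and 8 h dark, and short days (SD) had 8 h light and 16 h dark. The 2 histories were compared in darkness at the same hours after subjective dawn. All 24 libraries of darkness were used, of 84 in the series: 12 after LD and 12 after SD, with 6 time points 4 h apart and 2 libraries per time point and history, numbered 6 and 7 in the labels. No light was given while the samples were taken, so the groups differed in the day length the cells had known before. By these regimes, light last ended 8 h after the last lit dawn in SD cultures and 16 h after it in LD cultures. At the same hour after subjective dawn, the SD cultures had therefore been dark for longer. The study left the first day of constant conditions unsampled so that cultures could acclimate. Both groups had thus been dark for more than a day at the first sampled subjective dawn. Both groups were the same strain in liquid culture in column photochemostats, and the study describes sampling on 2 consecutive days. The labels do not say what the sample numbers stand for, and they are taken here as the days. The sources describe no repeated cultures within a history, and the study diluted its SD cultures more slowly than its LD cultures. Day length history, time since the last light, culture and dilution rate therefore cannot be told apart. For profiles and single hours, p-values measure the spread between the 2 numbers, whether days or cultures. For mean levels that spread also holds changes of the difference over the hours, and for cosines the misfit of the curve. Sampling hours are given as circadian time (CT), with CT0 at subjective dawn, and not as hours since the last light. The level of all 7668 genes of the table was given as FPKM, a read count scaled to the length of the transcript and the depth of its library.

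Ostreococcus tauri is a green alga whose cell holds a single chloroplast and a single mitochondrion. Its clock is built around CCA1, a MYB transcription factor, and TOC1, a response regulator, which repress each other in land plants and form the core loop proposed for this alga. Under a day and night cycle, the genes for protein synthesis, photosynthesis, starch turnover and DNA replication are used at different hours, and the clock can keep that order for some time after the light signal is removed.

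The estimated number of mapped reads was between 8210000 and 13060000 after LD and between 4520000 and 14230000 after SD. Between 46 and 324 genes were listed at 0 per library. On number 7 from CT4 to CT20, reads were between 4520000 and 8000000 after SD and between 11020000 and 13060000 after LD. At CT12, CT16 and CT20 of number 7, 246, 208 and 324 genes were at 0 after SD, against 78, 79 and 89 after LD. The effect of this depth on the calls was not tested. The library after SD at CT20 with number 7 stood apart, with 324 genes at 0 and a median gene at 21.2 FPKM, against medians between 30.998 and 49.8 FPKM in the other 23. In bulk samples, fewer cells of a kind and less RNA per cell cannot be told apart. The alga's defining genes were well expressed in the dark, with a median mean level of 533 FPKM over 30 genes of photosystems and electron transport and of 284 FPKM over 24 light-harvesting proteins, against 39.2 FPKM over all genes.

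The histories differed in the course of expression over the hours in more genes than in mean level. With time point and sample number as factors, the mean level over the day was higher after SD in 70 genes (0.913% of those tested) and lower in 361 genes (4.71%), by limma on log2(FPKM + 1) with adjusted p under 0.05. This fit counts differences in that course as spread. With history by time point terms added, 318 genes were higher and 1325 lower. The SD minus LD difference varied over the 6 time points in 3002 genes (39.1%). A cosine of 24 h differed between the histories in 3922 genes (51.1%). Changes of timing, of amplitude and of whole libraries all enter both tests. With each library centred on its own median, they gave 2449 and 3261 genes. Of the 3002 genes, 2904 (37.9% of those tested) had no call in mean level and 98 (1.28%) had both, and 333 genes had a call in mean level alone. The level calls rest on treating the libraries of 1 sample number as independent: with 1 mean per history and sample number, or with their correlation estimated, no gene passed, while 879 and 367 genes had an unadjusted p under 0.05.

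Nearly all differences at single hours were called from CT12 on. At CT0, 7 genes (0.0913%) were higher and 1 gene (0.013%) was lower after SD. No gene passed at CT4 or CT8 by limma, where 514 and 802 genes had an unadjusted p under 0.05. At CT12, 975 genes (12.7%) were higher and 462 (6.03%) lower. At CT16, 571 (7.45%) were higher and 1948 (25.4%) lower, and at CT20 133 (1.73%) were higher and 2493 (32.5%) lower. The median of all genes moved as well, to -0.30 at CT16 and -0.57 at CT20 on the log2 scale. With each library centred on its own median the split was 812 higher and 1031 lower at CT12, 1030 and 1348 at CT16, and 693 and 458 at CT20. The direction of the excess at CT12 and at CT20 therefore depended on the scaling. Values at CT16 and CT20 are to be read beside the medians of all genes. Division by the upper quartile gave 961 and 701 at CT12, 780 and 1704 at CT16, and 385 and 959 at CT20. Without the library after SD at CT20 with number 7, 1283 genes were lower at CT20. Without the library after LD with number 6, 0 genes were higher and 3 lower at CT12, 819 were lower at CT16 and 447 lower at CT20 (at CT12 1389 genes had an unadjusted p under 0.05), each from the fit without the library of that time point, where the lone LD library is assumed to vary like the others.

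**Figure D1:**
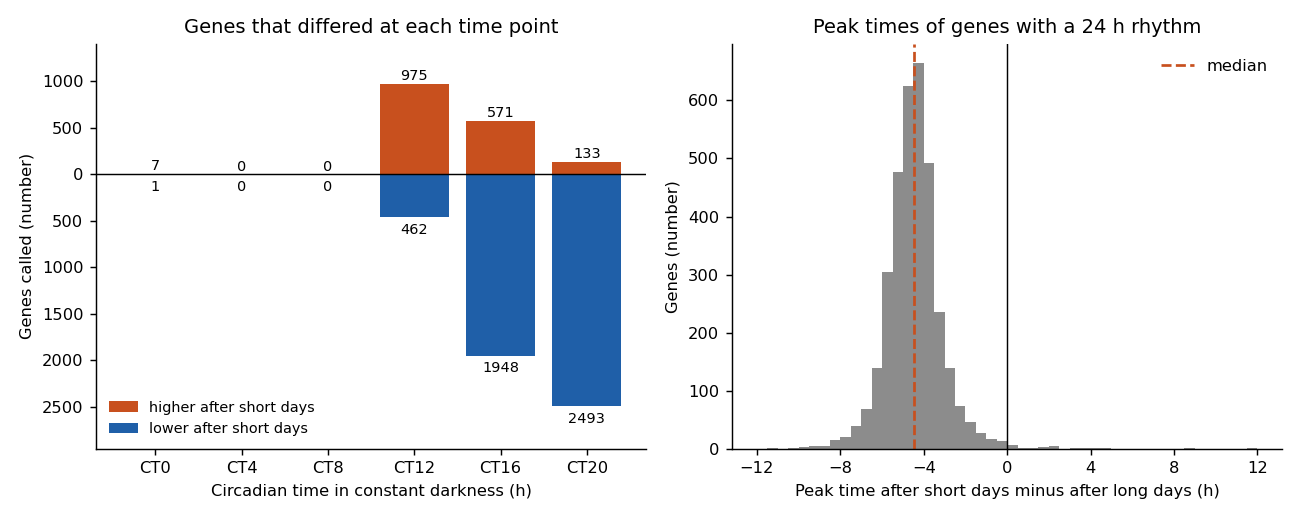
Left, bars give the number of genes higher (orange, upward) and lower (blue, downward) after short days at each circadian time (h) in darkness, by limma with adjusted p under 0.05. Right, a histogram of the peak time after short days minus that after long days (h) for 3432 genes with a 24 h rhythm after both histories: the median is -4.49 h, and 3410 genes lie below 0.

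Genes peaked at an earlier CT after SD, where cultures had been dark for longer at each CT. The effect of that time was not tested. A 24 h cosine was called after LD in 4465 genes (58.2%), after SD in 4766 (62.2%) and after both in 3432 (44.8%). In these 3432 genes the peak time after SD minus that after LD had a median of -4.49 h, with quartiles at -5.21 and -3.80 h, and 3410 genes (99.4%) peaked earlier after SD. The median was -4.64 h in number 6 alone and -4.20 h in number 7 alone. All 24 gene lists had a negative median, between -5.38 h for RNA polymerase subunits and -3.38 h for cyclins, kinases and mitosis. The highest mean over the 2 libraries fell at CT20 in 1876 genes after LD and in 291 genes after SD, and at CT8 in 501 genes after LD and 1639 after SD. Under the diel cycles themselves, 1797 of these genes also had a 24 h cosine in both day lengths, with a median SD minus LD peak time of -6.43 h there and -4.51 h in darkness. The difference between the regimes was not tested.

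The 2 sample numbers did not show this in the same way at each hour. Deviations from the gene means were taken over 6674 genes with a mean of at least 10 FPKM. With these, each SD library was correlated with the 6 LD libraries of the same number. Later hours are counted round the 24 h cycle, so CT0 counts as the hour after CT20. By the days as taken here, the matched CT0 library was sampled before the other hours of its number. On number 7, the best match was 4 h later than the SD library's own time or more at each of the 6 time points: CT4 matched CT8, CT8 matched CT12, CT12 matched CT16 with r of 0.778, and CT16 matched CT20 with r of 0.836. At CT0 and CT20 of number 7 the best match was close to that of the same hour, with r of 0.414 against 0.388 and of 0.583 against 0.582. On number 6, the libraries at CT0, CT4 and CT8 matched their own hour, with r of 0.604, 0.75 and 0.63. From CT12 on they matched a later hour, CT12 to CT20 with r of 0.549 and CT16 to CT0 with r of 0.576, and against its own hour r was -0.351 and -0.306. Genes are not independent replicates, and these values describe the libraries.

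**Figure D2:**
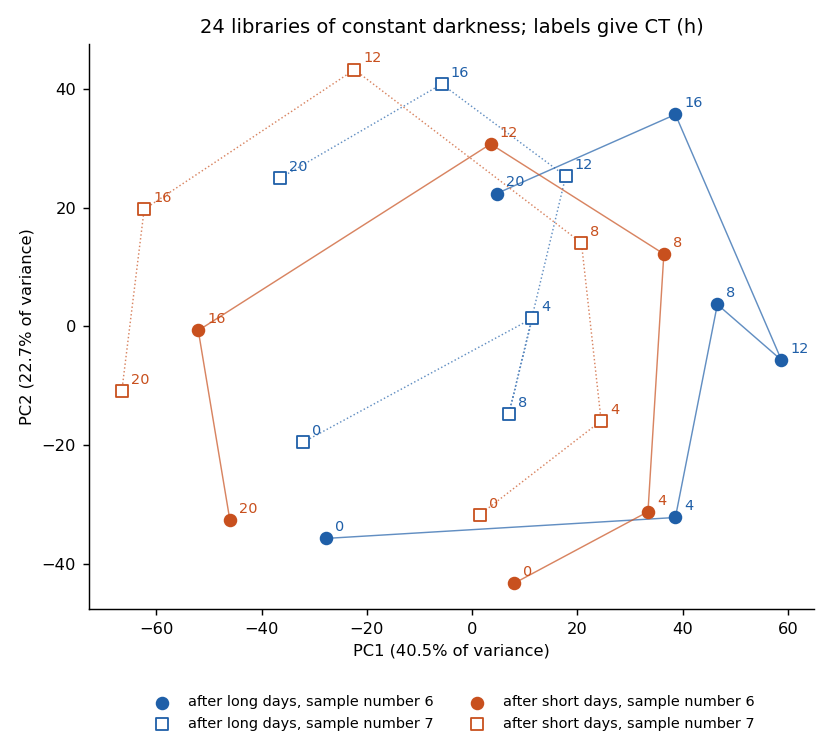
Scores of the 24 libraries of darkness on the first and second principal components (40.5% and 22.7% of the variance of log2(FPKM + 1)); blue is after long days, orange after short days, filled circles are sample number 6, open squares number 7, and labels give CT (h). Libraries run round the plane with time, and those after short days at CT16 and CT20 lie at the left end of the first component.

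Among clock genes, CCA1 peaked earlier after SD. CCA1 (ostta06g02340) was at 179 and 504 FPKM at CT12 after LD (numbers 6 and 7), and at 1611 and 1733 FPKM after SD. Both SD libraries were above both LD libraries, with a log2 difference of 2.47 ± 0.63 (SE, adjusted p = 0.0154). Its fitted peak was at 17.7 ± 0.94 h (SE) after LD and at 12.9 ± 0.43 h after SD, and its mean level did not pass (log2 difference 0.14, adjusted p = 0.846).

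TOC1 (ostta13g01820) was at 403 and 439 FPKM at CT16 after LD and at 46.4 and 102 FPKM after SD. The libraries did not overlap, and the difference was -2.59 ± 0.93 (SE, adjusted p = 0.0448). The profile test of TOC1 did not pass (adjusted p = 0.338), so a shift of its profile was not detected here. HK (ostta09g02190), a histidine kinase, was at 37.3 and 97.0 FPKM at CT16 after LD and at 317 and 477 FPKM after SD, a difference of 2.67 ± 0.41 (SE, adjusted p = 0.000419). The photolyase UVR2 (ostta03g05620), which repairs ultraviolet damage to DNA, was at 4.05 and 13.3 FPKM at CT12 after LD and at 32.9 and 23.6 FPKM after SD (1.77 ± 0.44, adjusted p = 0.0144). Both SD libraries were above both LD libraries in HK and UVR2 at these hours. The cryptochrome CRY1 (ostta15g01000) had another profile (adjusted p = 0.0118), with fitted peaks at 21.8 h after LD and 16.3 h after SD. Of the 6 genes listed as clock and light receptors, 4 (66.7%) had another profile, against 39.1% of all genes.

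**Figure D3:**
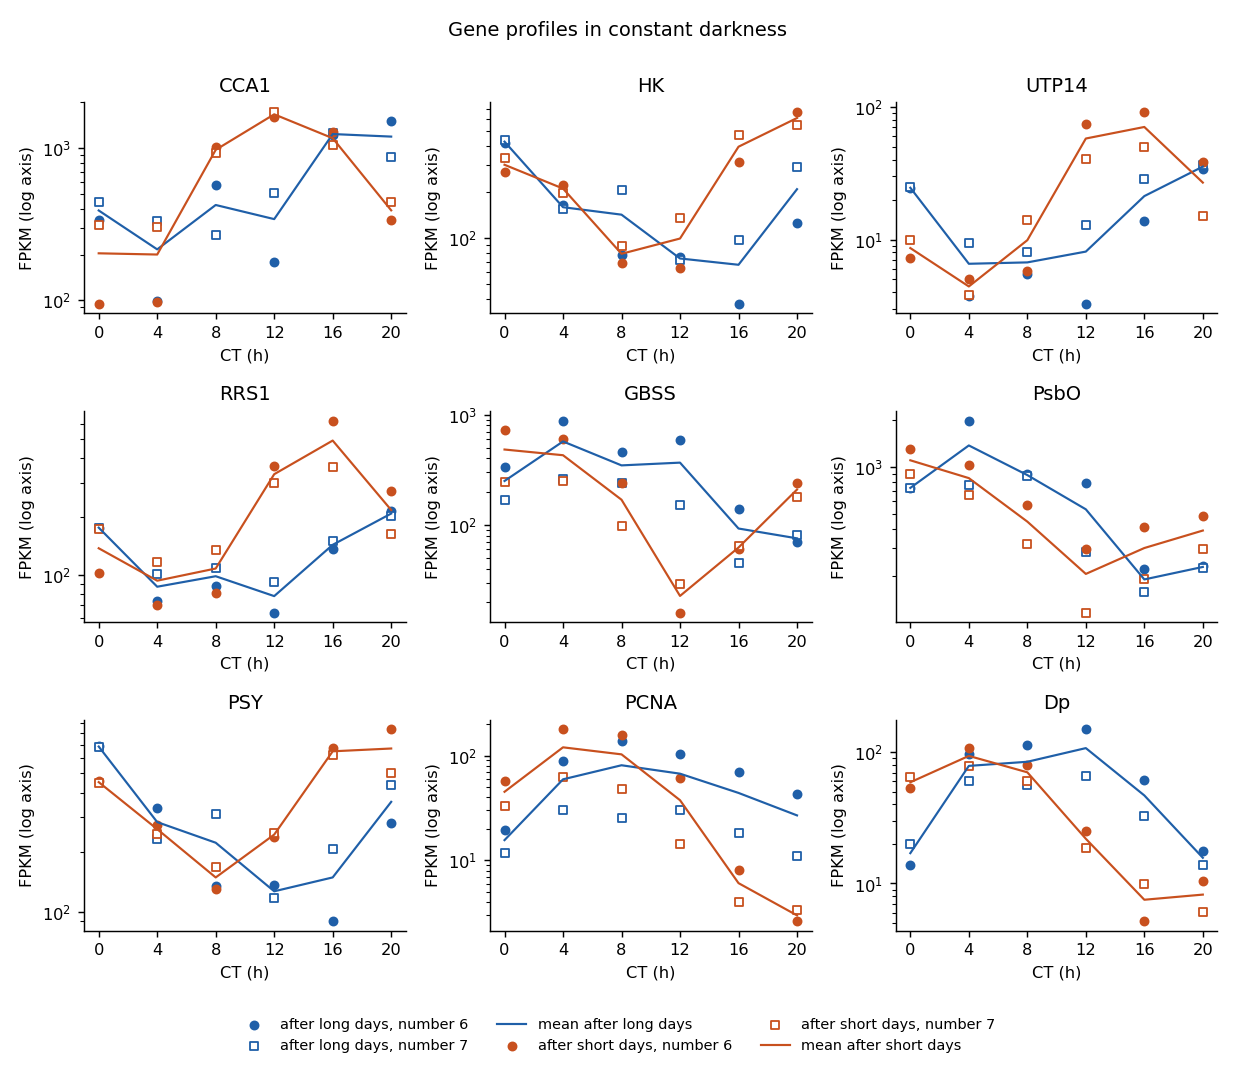
FPKM (log axis) of 9 genes against circadian time (h) in constant darkness; blue is after long days, orange after short days, filled circles are sample number 6, open squares number 7, and lines join the means of the 2 libraries. After short days CCA1 has already risen by CT8, and UTP14 and RRS1 rise between CT8 and CT12. GBSS and Dp are low at CT12 after short days.

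The machinery that makes ribosomes was higher at CT12 after SD, and its peaks were earlier, with a median of -4.84 h in the 24 genes with a 24 h cosine after both histories. Of 26 genes of ribosome assembly, 21 (80.8%) were higher at CT12 and 0 lower, against 12.7% and 6.03% of all genes. Their median log2 difference was 2.07 against 0.02 over all genes, and 20 (76.9%) had another profile, against 39.1%. At CT20, 6 (23.1%) were lower, under the 32.5% of all genes. The median at CT12 was 2.68 on number 6 and 1.203 on number 7. Of 47 translation factors and tRNA ligases, 27 (57.4%) were higher at CT12 and 3 (6.38%) lower. Of 30 RNA polymerase subunits, 15 (50%) were higher and 0 lower at CT12, and 12 (40%) were lower at CT20. Of 109 ribosomal proteins, 40 (36.7%) were higher and 0 lower at CT12, with a median of 1.03. Only 11 had another profile over the day (10.1%, under the 39.1% of all genes).

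UTP14 (ostta04g00770), a part of the small-subunit processome that cuts ribosomal RNA, was at 3.28 and 12.9 FPKM at CT12 after LD and at 74.5 and 40.7 FPKM after SD. The difference was 2.86 ± 0.60 (SE, adjusted p = 0.00666), and the fitted peak moved from 20.1 h to 15.3 h. BMS1 (ostta05g01080), a GTPase of the same particle, was at 1.12 and 12.1 FPKM at CT12 after LD and at 56.7 and 28.3 FPKM after SD (adjusted p = 0.015). RRS1 (ostta15g01610), needed for the large subunit, was at 137 and 150 FPKM at CT16 after LD and at 624 and 362 FPKM after SD, a difference of 1.72 ± 0.35 (SE, adjusted p = 0.00259). In each of these genes the SD libraries lay above the LD libraries without overlap at the hour given.

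Translation factors followed the same order. The initiation factor eIF2 (ostta03g02100), which brings the starter tRNA to the ribosome, was at 25.1 and 50.2 FPKM at CT12 after LD and at 156 and 127 FPKM after SD (1.96 ± 0.34, adjusted p = 0.00386). The elongation factor EF1B (ostta04g00090) was at 14.3 and 136 FPKM at CT16 after LD and at 632 and 383 FPKM after SD (3.42 ± 0.88, adjusted p = 0.00883). The ribosomal protein RPL7AE (ostta02g01210) was higher after SD at CT12 by 1.06 ± 0.33 (SE, adjusted p = 0.0369). It was lower at CT20 by a difference of -1.14 ± 0.33 (SE, adjusted p = 0.0176), where the median of all genes was -0.57. Of the 109 ribosomal proteins, 9 (8.26%) were lower at CT20, under the 32.5% of all genes.

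**Figure D4:**
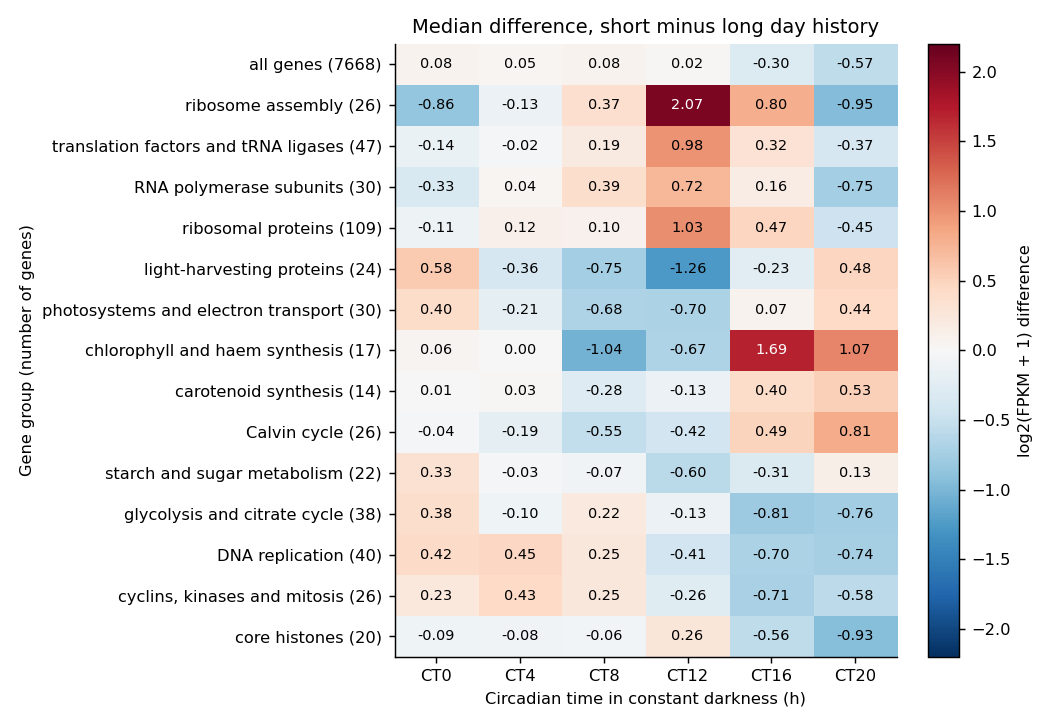
Median SD minus LD difference in log2(FPKM + 1) of 14 gene groups and of all 7668 genes (rows, with the number of genes) at each circadian time (h, columns); red is higher and blue lower after short days. Ribosome assembly stands at 2.07 at CT12, light-harvesting proteins at -1.26 at CT12 and chlorophyll and haem synthesis at 1.69 at CT16, while all genes stand at -0.57 at CT20.

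Photosynthesis genes were lower at CT12 after SD. Of 24 light-harvesting proteins, the antenna proteins that bind chlorophyll, 14 (58.3%) were lower at CT12 and 0 higher, against 6.03% and 12.7% of all genes. Their median log2 difference was -1.26, and 16 (66.7%) had another profile, against 39.1% of all genes. At CT20, 4 (16.7%) were higher and 1 (4.17%) lower, against 1.73% and 32.5% of all genes. Of 30 genes of photosystems and electron transport, 12 (40%) were lower and 0 higher at CT12. At CT16, 8 (26.7%) were higher and 2 (6.67%) lower, against 7.45% and 25.4% of all genes. The antenna gene ostta08g04020 was at 547 and 148 FPKM at CT12 after LD and at 24.3 and 16.4 FPKM after SD, a difference of -3.77 ± 0.41 (SE, adjusted p = 0.000563). It was also lower in mean level (-1.44, adjusted p = 0.0317), as was the antenna gene ostta02g04800 (-0.90, adjusted p = 0.027). They were among 4 of the 24 that were, against 4.71% of all genes.

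PsbO (ostta14g00150), the protein that steadies the manganese cluster where photosystem II splits water, was at 785 and 282 FPKM at CT12 after LD and at 295 and 116 FPKM after SD. These libraries overlapped between the numbers, and the difference was -1.34 ± 0.35 (SE, adjusted p = 0.0179). PsaF (ostta04g01790), a subunit of photosystem I, was at 671 and 382 FPKM at CT12 after LD and at 260 and 148 FPKM after SD (-1.36 ± 0.28, adjusted p = 0.00634). A PsbP protein (ostta01g03170) was at 144 and 98.7 FPKM at CT16 after LD and at 22.05 and 24.8 FPKM after SD, a difference of -2.30 ± 0.25 (SE, adjusted p = 8.35e-05). At that hour it was among the 2 genes of the photosystem list that were lower, while 8 were higher. Another PsbP gene (ostta14g02630) was at 419 and 299 FPKM at CT16 after LD and at 347 and 146 FPKM after SD, which overlapped.

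Many genes for pigments and carbon fixation were higher at CT16 after SD, and those for chlorophyll, haem and carbon fixation also at CT20, against 7.45% and 1.73% of all genes. Of 17 genes of chlorophyll and haem synthesis, 12 (70.6%) were higher and 1 lower at CT16, and 9 (52.9%) were higher and 1 lower at CT20. Another profile was called in 14 (82.4%), against 39.1% of all genes. Their median was 1.69 at CT16, against -0.30 over all genes. The protoporphyrinogen oxidase ostta06g03370, which acts where the chlorophyll and haem branches meet, was at 18.3 and 43.2 FPKM at CT16 after LD and at 210 and 163 FPKM after SD (2.67 ± 0.53, adjusted p = 0.00231). Of 14 carotenoid genes, 7 were higher and 2 lower at CT16, and none had a call at CT20 by limma. PSY (ostta05g03530), phytoene synthase, the entry step of the carotenoid pathway, was at 89.6 and 209 FPKM at CT16 after LD and at 672 and 622 FPKM after SD (2.23 ± 0.40, adjusted p = 0.00112). ZEP (ostta16g00670), zeaxanthin epoxidase of the xanthophyll cycle, was higher at CT16 by 1.52 ± 0.29 (SE, adjusted p = 0.00181).

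Of 26 Calvin cycle genes, 11 were higher and 3 lower at CT16, and 7 were higher and 3 lower at CT20. SBPase (ostta03g05500), which helps to rebuild the carbon dioxide acceptor, was at 41.6 and 198 FPKM at CT16 after LD and at 1036 and 686 FPKM after SD (3.20 ± 0.69, adjusted p = 0.00357). RCA (ostta04g02510), Rubisco activase, was at 363 and 528 FPKM at CT20 after LD and at 1936 and 1347 FPKM after SD (1.88 ± 0.42, adjusted p = 0.00527). GAPDHA (ostta01g01560), which reduces the fixed carbon, differed in both directions, with a difference of -1.52 ± 0.32 at CT12 (adjusted p = 0.00685) and 1.73 ± 0.32 at CT20 (adjusted p = 0.00202).

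Starch genes differed in both directions. Of 22 genes of starch and sugar metabolism, 15 (68.2%) had another profile, against 39.1% of all genes. At CT12, 8 (36.4%) were lower and 1 (4.55%) higher, against 6.03% and 12.7% of all genes. At CT16, 5 (22.7%) were higher, against 7.45% of all genes, and 7 (31.8%) lower, nearer the 25.4% of all genes. GBSS (ostta06g02940), the granule-bound synthase that makes amylose, was at 582 and 150 FPKM at CT12 after LD and at 16.0 and 29.3 FPKM after SD, with no overlap and a difference of -3.71 ± 0.56 (SE, adjusted p = 0.00352). APS (ostta07g03070), a subunit of the enzyme that makes ADP-glucose for starch, was lower at CT12 (-2.06 ± 0.61, adjusted p = 0.0317) and higher at CT16 (2.74 ± 0.61, adjusted p = 0.00426), where it was at 30.2 and 45.7 FPKM after LD and at 318 and 204 FPKM after SD.

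Genes annotated as hydrolases in the starch and sugar list did not move together. ISA and AMY were lower at CT16, and a gene annotated only as a glycosyl hydrolase of family 13 was higher. That annotation does not give its role in starch. ISA (ostta02g05060), an isoamylase that trims branches, was at 44.5 and 39.9 FPKM at CT16 after LD and at 6.11 and 7.93 FPKM after SD (-2.44 ± 0.34, adjusted p = 0.000246). AMY (ostta10g00260), an amylase, was at 59.8 and 44.0 FPKM after LD and at 14.97 and 15.01 FPKM after SD at CT16 (-1.71 ± 0.26, adjusted p = 0.000458). The other family 13 gene, ostta16g00440, was at 46.1 and 242 FPKM after LD and at 980 and 1071 FPKM after SD at CT16 (3.26 ± 0.66, adjusted p = 0.00235). PUL (ostta01g03050), a pullulanase, was the member of this list that was higher in mean level (0.61, adjusted p = 0.0452). It ranged from 5.13 to 13.5 FPKM after LD and from 5.21 to 20.3 FPKM after SD, so the groups overlapped.

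Genes of DNA replication and division were lower after SD at CT20 in a share near that of all genes, and at CT16 in a larger one. The 21 replication genes with a 24 h cosine after both histories had a median peak difference of -3.99 h. Of 40 DNA replication genes, 14 (35%) were lower at CT16, against 25.4% of all genes, and 15 (37.5%) at CT20, against 32.5%. At either hour 0 were higher, and 21 (52.5%) had another profile, against 39.1% of all genes. Their median was -0.70 at CT16 and -0.74 at CT20 as deposited, and -0.44 and -0.12 with libraries centred on their medians. Of 26 genes of cyclins, kinases and mitosis, 10 (38.5%) were lower at CT16 and 8 (30.8%) at CT20, 0 higher, and their median at CT20 was -0.58 as deposited but 0.04 with centring. Of 20 core histones, 5 (25%) were lower at CT16 and 11 (55%) at CT20.

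PCNA (ostta06g02890), the ring that holds the DNA polymerase on its template, was at 69.8 and 18.2 FPKM at CT16 after LD and at 8.14 and 3.98 FPKM after SD (-2.45 ± 0.48, adjusted p = 0.00206). At CT4 it was at 88.6 and 29.9 FPKM after LD and at 178 and 61.8 FPKM after SD, a difference that did not pass. MCM2 (ostta11g00910), part of the MCM ring that unwinds DNA, was at 21.2 and 14.1 FPKM at CT16 after LD and at 4.50 and 3.87 FPKM after SD (-1.82 ± 0.32, adjusted p = 0.00104). CDC45 (ostta04g04640), which joins that ring, was lower at CT20 by a difference of -1.64 ± 0.33 (SE, adjusted p = 0.00318).

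Regulators of the entry into S phase differed among themselves. E2F (ostta02g01950), a transcription factor of S phase genes, had no call at any hour, with 189 and 211 FPKM at CT12 after LD and 249 and 255 FPKM after SD (0.33 ± 0.15, adjusted p = 0.149). Dp (ostta10g01190), partner of E2F, was at 149 and 65.7 FPKM at CT12 after LD and at 25.3 and 18.5 FPKM after SD (-2.14 ± 0.40, adjusted p = 0.0046). Rb (ostta16g02100), the retinoblastoma protein that holds E2F back, was at 30 and 39.5 FPKM at CT20 after LD and at 6.64 and 6.87 FPKM after SD (-2.19 ± 0.38, adjusted p = 0.00155). CKS (ostta07g01870), a subunit of cyclin-dependent kinases, had another profile (adjusted p = 0.0173) and differed widely between the numbers: after SD at CT12 it was at 34.9 FPKM on number 6 and listed at 0 on number 7. CYCB (ostta01g06150), a mitotic cyclin, was at 33.8 FPKM on number 6 and at 2.69 FPKM on number 7 in the same pair. FTSZ1 (ostta08g02230), which divides the chloroplast, was lower in mean level (-0.65, adjusted p = 0.0338).

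More of the genes of sugar breakdown, respiration and defence against oxidation were lower at CT16 than the 25.4% of all genes, while at CT20 respiration and antioxidant genes were near the 32.5% of all genes. Of 38 genes of glycolysis and the citrate cycle, 20 (52.6%) were lower and 1 higher at CT16, and 17 (44.7%) lower at CT20. The membrane subunit of succinate dehydrogenase (ostta06g03120), shared by the citrate cycle and the respiratory chain, was at 321 and 149 FPKM at CT16 after LD and at 36.9 and 36.04 FPKM after SD (-2.55 ± 0.33, adjusted p = 0.000158). Of 39 genes of respiration and ATP synthase, 17 (43.6%) were lower and 4 higher at CT16, and 12 (30.8%) lower and 1 higher at CT20, where the median was -0.50 as deposited but 0.11 with centring. Of 18 antioxidant enzymes, 8 (44.4%) were lower and 2 higher at CT16, and 6 (33.3%) lower at CT20, where the median was -0.62 as deposited and -0.00048 with centring. The haem peroxidase ostta09g01590 was at 320 and 166 FPKM at CT16 after LD and at 23.3 and 29.6 FPKM after SD (-3.09 ± 0.38, adjusted p = 0.000138). A gene annotated as a copper and zinc superoxide dismutase or its chaperone (ostta20g00440), which removes superoxide, was at 480 and 238 FPKM after LD and at 113 and 72.2 FPKM after SD at CT16 (-1.89 ± 0.29, adjusted p = 0.000405).

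Groups that maintain proteins, membranes and DNA stood at or above the 25.4% of all genes that were lower at CT16. Of 75 chaperones, which help proteins to fold, 20 (26.7%) were lower and 4 higher, about the share of all genes. Of 32 proteasome genes, whose products degrade tagged proteins, 14 (43.8%) were lower and 1 higher. Of 36 lipid metabolism genes, 15 (41.7%) were lower and 6 higher, and of 9 autophagy genes 5 (55.6%) were lower and 0 higher. Of 28 DNA repair genes, 11 (39.3%) were lower and 0 higher at CT16, with a median of -0.70 as deposited and -0.43 with centring. At CT20 the medians of chaperones, proteasome and lipid genes were -0.57, -0.55 and -0.58 as deposited but 0.05, 0.07 and 0.03 with centring. The 29 genes of MYB, RWP-RK and response regulators, families of transcription and signalling proteins, went both ways, with 5 higher and 4 lower at CT16.

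Among annotated genes with a mean of at least 10 FPKM, the 10 whose difference varied most over the day are given as a description, since that spread chose them. The CCCH zinc finger gene ostta08g01880 was at 11.6 and 167 FPKM at CT12 after LD and at 1558 and 1209 FPKM after SD (4.90 ± 0.92, adjusted p = 0.00457). The SNF2-related gene ostta09g01150, of a family that moves nucleosomes, was at 14.6 and 324 FPKM at CT12 after LD and at 1311 and 2618 FPKM after SD (4.70 ± 0.72, adjusted p = 0.00352). The tRNA methyltransferase gene ostta03g02610 was at 0.17 and 4.16 FPKM at CT12 after LD and at 56.9 and 21.6 FPKM after SD. In these genes the LD library of number 6 was the lowest of the 4 at CT12. The cytochrome b5-like gene ostta05g00100 and the elongation factor-like gene ostta15g00390 differed most at CT16, by 4.04 ± 0.96 and 4.05 ± 0.83 (SE, adjusted p = 0.00605 and 0.00259). The RanBP2-type zinc finger gene ostta05g03560, the RNA C5-cytosine methyltransferase gene ostta03g00060 and the restriction endonuclease-like gene ostta09g01760 were higher at CT12, by 3.64, 3.52 and 3.12, and CKS is given above. The WD40 gene ostta02g04060 was at 575 and 74.1 FPKM at CT20 after LD and at 55.0 and 4.84 FPKM after SD (-3.52 ± 0.67, adjusted p = 0.00227), with wide gaps between the numbers in both histories.

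A small set had a call in mean level and the same direction at each hour. A difference at each single hour was not shown, as no gene passed at CT4 or CT8 by limma. Some pairs were nearly equal: the sulfotransferase gene ostta19g00410 was at 259.2 FPKM after LD and 259.6 FPKM after SD at CT0 on number 6. In 9 genes called higher (0.117%) and 77 called lower (1%), all 12 pairs of libraries of the same hour and number went the same way. Among those annotated and with a mean of at least 10 FPKM, 7 were higher and 37 lower, and the genes described are the 7 and 9 of those with the largest falls.

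The kinase gene ostta17g01380 ranged from 4.745 to 16.5 FPKM after LD with a median of 7.06, and from 10.1 to 34.1 FPKM after SD with a median of 23.7. The groups overlapped, and the log2 difference was 1.24 ± 0.17 (SE, adjusted p = 0.000654). Some other higher genes were annotated as glycosyltransferases or as a sulfotransferase. The alpha 1,4-glycosyltransferase gene ostta19g00230 had a median of 63.7 FPKM after LD and 151 FPKM after SD (1.19 ± 0.17, adjusted p = 0.00132). The sulfotransferase gene ostta19g00410, the family 25 glycosyltransferase gene ostta19g00480 and the AER61 glycosyltransferase gene ostta02g00040 had differences of 0.72, 0.36 and 0.60. The gene ostta07g02110, annotated with a domain of the large subunit of Rubisco, had medians of 8.07 and 15.4 FPKM (0.68 ± 0.14, adjusted p = 0.0114), and the acyltransferase gene ostta13g03050 a difference of 0.46.

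The largest fall was in a DnaJ gene (ostta06g03860), a helper of Hsp70 chaperones, with a median of 345 FPKM after LD and 112 FPKM after SD (-1.62 ± 0.31, adjusted p = 0.00628). The import protein gene TIM15 (ostta16g01610), which keeps the mitochondrial Hsp70 soluble in yeast, ranged from 59.98 to 161 FPKM after LD and from 23.4 to 87.4 FPKM after SD (-1.04 ± 0.13, adjusted p = 0.00022). The methionine sulphoxide reductase gene ostta14g00520, which repairs oxidised methionine, had medians of 182 and 106 FPKM (-1.05 ± 0.19, adjusted p = 0.00452). The pyridine nucleotide-disulphide oxidoreductase gene ostta04g03900 had medians of 74.0 and 42.7 FPKM, with a difference of -0.85 ± 0.09 (SE, adjusted p = 5.76e-05). The gene ostta04g00290 fell by 1.52, the FAS1 gene ostta03g01220 by 1.11, the SAP gene ostta06g03950 by 0.88, ostta02g03370 by 0.84 and ostta01g02860 by 0.75 on the log2 scale.

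**Figure D5:**
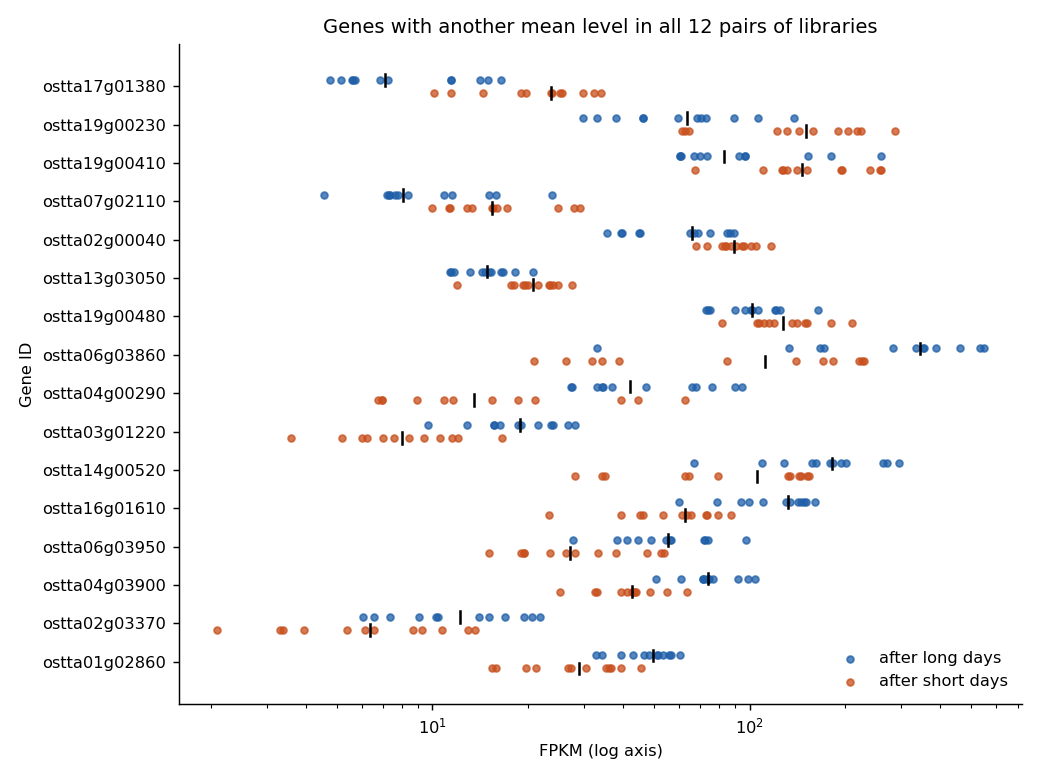
FPKM (log axis) of 16 genes with another mean level, with 1 point per library of darkness, 12 after long days (blue) and 12 after short days (orange), and the group median as a bar. The 7 genes at the top have higher medians after short days, the 9 below have lower ones, and the 2 groups overlap in each gene.

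The groups of 12 libraries were apart without overlap in 2 genes (0.0261%), named here after their values were seen. The CcsA gene ostta14g00460, of cytochrome c biogenesis, ranged from 119 to 174 FPKM after LD and from 96.7 to 112 FPKM after SD (-0.47 ± 0.07, adjusted p = 0.00142). The unnamed gene ostta06g01270 ranged from 152 to 226 FPKM after LD and from 67.1 to 129 FPKM after SD (-1.03 ± 0.10, adjusted p = 3.8e-05).

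The same contrast was fitted apart in constant light (LL, 24 libraries) and in the diel cycles (36 libraries). In LL, 1947 genes (25.4%) were higher and 1407 (18.3%) lower after SD, and in the diel cycles 1307 (17%) and 631 (8.23%). Of the 70 genes higher in darkness, 40 were higher and 2 lower in LL, and 42 and 2 in the diel cycles. Of the 361 lower genes, 119 were lower and 45 higher in LL, and 77 and 14 in the diel cycles. TIM15 had a difference of -1.83 in LL and -1.96 in the diel cycles. The gene ostta04g00290 had 0.83 in LL (adjusted p = 0.0145) and 0.09 in the diel cycles. Whether the difference changed between regimes was not tested.

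The difference between the histories changed with the sample number in 115 genes (1.5%), and the 4 nitrate genes were not among them (adjusted p from 0.579 to 0.802). These 4 genes were near 0 on number 7 from CT12 to CT20 after both histories. NR (ostta10g00920, nitrate reductase), NIR (ostta10g00930, nitrite reductase), NRT2 (ostta10g00950, nitrate transporter) and NRT3 (ostta10g00940, its partner) have neighbouring IDs. From CT12 to CT20, NR was between 166 and 305 FPKM on number 6 after SD and between 8.71 and 22.4 FPKM on number 6 after LD. On number 7 it did not exceed 0.06 FPKM after LD or 0.64 FPKM after SD at those hours, while from CT0 to CT8 it reached 119 and 104 FPKM. NRT2 did not exceed 0.54 FPKM after LD and 2.58 FPKM after SD on number 7 from CT12 to CT20, against at least 433 FPKM on number 6 after SD. None of these 4 genes had a call in level, profile or cosine, or for a change with sample number. Of the 23 genes of nitrogen assimilation, 5 (21.7%) had another profile, under the 39.1% of all genes.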

How the data were processed

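RNA was measured in liquid cultures of Ostreococcus tauri, and groups, time points and sample numbers were taken from the sample labels. The FPKM values were made by the authors, who mapped single-end reads of 75 nt with HISAT2 to the v3.0 genome after FastQC and quantified genes with StringTie and Ballgown; versions are not given in the sources used here, and no scaling across libraries is stated. The labels call the molecule polyA RNA and name a total RNA kit, so the selection of RNA is unsure. The deposited table of darkness held 182 whole numbers, of which 181 were divided by 1000, being then nearer the gene's other values, and 1 was kept. Mapped reads were estimated from the 250 lowest FPKM values above 0 of each library. Of 7668 gene IDs, 7661 matched the reference annotation.

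Genes were tested with limma 3.58.1 (R 4.3.3) on log2(FPKM + 1), with empirical Bayes variances and a trend, and two-sided p-values were adjusted by Benjamini-Hochberg over all 7668 genes at 0.05. No filter was used. A fold on this scale understates the change of low genes. Levels were fitted with history, time point and sample number; profiles with 5 history by time point terms (F test); cosines with a 24 h period; and single hours as contrasts of cell means, 2 libraries against 2. Peak times come from cosine fits in each history. LL and diel libraries were fitted apart. The sample number was a replicate block because the values pair the libraries: deviations from the group means of the LD and SD libraries of the same number correlated between 0.309 and 0.626 in 6 of 6 time points. The number is taken as the day, which the labels do not state, and libraries of 1 history and number also correlated over time points (medians of 0.594 after LD and 0.434 after SD), so the p-values for levels are too small. Exact tests over the 2 numbers could not reach 0.05 and were not run.

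The members and the 24 gene lists (752 genes, from the study's named genes and the words of its annotation) were chosen with earlier results of these data known. Genes are named if a list gives them a symbol, if they are among up to 10 rises and 10 falls in level (annotated, mean of at least 10 FPKM, all 12 pairs the same way), among the 10 widest profile differences, or among 3 members per list with the largest level difference; 1 gene of the falls is not reported here. The alternatives were pseudocounts of 0.1 and 5, a mean of at least 5 FPKM, 2 scalings, no block, other treatments of whole numbers, and libraries, days or time points left out; those for single hours were added after the data were seen. Scripts were tested on simulated data. Python 3 and matplotlib drew the figures.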

Additional observations from a re-analysis of the deposited data

Results flagged for a closer look

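The difference between the histories itself changed over the hours of darkness in 3002 genes, by the F test of the history by time point terms in limma. A 24 h cosine differed between the histories in 3922 genes. The difference changed with the sample number in 115 genes (1.5%): it was more positive on number 7 in 29 and more negative in 86. The strongest annotated one in that order was an Hsp70 gene (ostta12g01910), chosen after its values were seen, with a difference of 1.27 on number 6 and -1.13 on number 7 (adjusted p = 0.00442).

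With or without a call in level, all 12 pairs of libraries were higher after SD in darkness in 9 genes and lower in 90. Of these genes, 22 went the same way in all 12 pairs in constant light. In 2 genes all 12 pairs were lower after SD in darkness, while all 12 pairs were higher after SD in constant light. The MIR motif gene ostta07g01500 had a log2 difference of -0.52 ± 0.12 (SE) in darkness and 0.71 ± 0.10 in LL, and the unnamed gene ostta15g00810 had -1.13 ± 0.26 and 1.31 ± 0.27. The difference between the regimes was not tested.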

How the results depend on the processing

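No value was obtained for profiles with sample number 6 or 7 left out in both histories, which leaves no residual degrees of freedom. The calls in level were the least stable: counts of higher and lower genes (70 and 361) were 158 higher with upper quartile scaling, 218 higher with median centring, 0 and 0 with 1 mean per history and number or with an estimated correlation of 0.246, and 318 and 1325 with time by history terms. Without CT0 they were 222 and 1146, without CT4 11 and 139, without CT8 19 and 129, without CT12 21 and 133, without CT16 8 and 53, and without CT20 112 lower. With no replicate block, against the pairing by number, levels gave 24 and 171, profiles 1212, CT0 1, CT12 561 higher and 120 lower, CT16 342 and 1005, and CT20 34 and 979. Changes with sample number counted 200 with upper quartile scaling and 183 with centring. CT0 gave 53 with a pseudocount of 5 and 34 with centring. Lower genes at CT12 were 701 and 1031 under these scalings, higher genes at CT16 1030 with centring, and CT20 gave 385 and 959, then 693 and 458. The cause of these moves was not tested.

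Leaving out 1 library, 1 history and number, or 1 number in both histories gave 0 to 182 higher and 0 to 770 lower genes, 402 to 3046 profiles and 0 to 3232 cosines. Without 1 library, CT0 gave 0 to 40 genes, CT4 0 to 0, CT8 0 to 1, CT12 0 to 1058 higher and 3 to 508 lower, CT16 117 to 627 and 819 to 2000, and CT20 2 to 154 and 447 to 2532. Fewer samples account for part of these ranges by construction. None of the 22 level and 51 time point results of named genes changed direction under any alternative that gave a value. Without the LD libraries of number 6, 15 of the 22 level results, 29 of the 42 profile results and 31 of the 51 time point results lost their call. The pseudocounts, the filter on low values and the whole numbers left each count run within 1.5 times its main value, apart from CT0. With no replicate block, 10 level, 12 profile and 11 time point results lost their call. The shallowest library, at about 4520000 mapped reads, limits low genes.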

Other observations

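The genes higher after SD were unevenly spread over the chromosomes, as read from the gene IDs, a pattern looked at after the values were seen. Chromosomes 2 and 19 are known in this alga as the outlier chromosomes, with another base composition than the rest. They held 32 of the 70 genes with a higher mean level. Of the 536 genes of chromosome 2, 17 (3.17%) were higher and 22 lower, with a median difference of -0.0044. Of the 74 genes of chromosome 19, 15 (20.3%) were higher after SD by limma, against 0.913% higher over all genes, and 3 had another profile (4.05%, against 39.1%). With 1 mean per history and sample number, or with their correlation estimated, 0 of all genes were called higher, while 879 and 367 genes had an unadjusted p under 0.05 in either direction. The higher genes on chromosome 19 included FkbM methyltransferases (ostta19g00270 and ostta19g00280, log2 differences of 0.59 and 0.53), triose-phosphate transporter genes (ostta19g00400 and ostta19g00490, 0.56 and 0.62) and a transposase-derived nuclease gene (ostta19g00385, 0.75). The difference of ostta19g00490 changed with the sample number by limma (adjusted p = 0.0413), being 1.09 on number 6 and 0.15 on number 7. The median difference over chromosome 19 was 0.37, against -0.08 over all genes, and it was 0.61 on number 6 and 0.01 on number 7. In the same contrast 52 of the 74 genes were higher and 1 lower in LL, and 51 higher and 1 lower in the diel cycles.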
